A study of Mus musculus with 15 samples.

Results

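The cytochrome P450 genes of the mouse kidney were taken as every gene of the deposited transcript table whose name is Cyp followed by a digit, leaving out the 17 pseudogenes marked -ps. The rule found 88 members among 33058 genes, held in 238 transcripts. One member, Cyp4x1os, is an antisense RNA on the strand opposite Cyp4x1 and encodes no enzyme. The value of a gene is the sum of the FPKM (fragments counted per kilobase, corrected for the size of the library) of its annotated and overlapping assembled transcripts. The study sequenced total kidney RNA of male C57BL/6 mice (C57BL/6J in the methods) at 3, 12 and 24 months of age, with 5 mice per age and 1 library per mouse. The mice were kept on standard chow, and the labels name no transgene and no treatment. The 3-month-old mice are called young and the 24-month-old mice old.

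P450 enzymes are heme proteins that insert oxygen into lipids, steroids, vitamins and drugs. The microsomal forms draw electrons from the reductase Por, and the mitochondrial forms from ferredoxin. In the kidney, which burns fat for transport work in its proximal tubule, the Cyp4a enzymes hydroxylate the end of fatty acids and arachidonic acid, the Cyp2c and Cyp2j enzymes form epoxides of arachidonic acid, and Cyp27b1 and Cyp24a1 make and break down the active hormone of vitamin D. Several mouse kidney P450 genes are known to respond to androgen and to the daily clock.

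A gene was said to rise or fall when its unadjusted p was under 0.05 in the limma fit over all genes on log2(FPKM + 1). For many named genes the Benjamini-Hochberg adjusted p of limma over all genes is given. Beside it stands an exact 2-sided permutation test of the same difference for the single gene, whose smallest possible p with 5 against 5 mice is 0.00794. Of the 88 members, 37 had a mean of at least 1 FPKM over the 15 mice. The other 51 had means between 0.000713 and 0.966 FPKM. Between 24 and 3 months 19 members rose and 2 fell, which is 23.9% of the members, where 14.9% of all 31755 genes tested were called (11.4% higher and 3.47% lower). In the subset of at least 1 FPKM, 12 of 37 rose and 1 fell, beside 18.7% of all genes at that level (12.4% higher and 6.35% lower). The median log2 difference was 0.01 over all members and 0.11 over the 37, compared with 0.02 over all genes and 0.05 over all genes of at least 1 FPKM. Members with little RNA move little on this scale because of the added 1.

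Cyp2c44, Cyp2d12 and Cyp2a4 were higher at 24 months with an adjusted limma p under 0.05, a limit that 1.22% of all genes passed. Cyp2d26 and Cyp2b10 were the 2 members that fell. Of the 21 called members, 5 had a log2 difference beyond 1 in size (Cyp2c44, Cyp2d12, Cyp2a5, Cyp2j9 and Cyp2d26). Of all genes tested, 0.523% were called with a difference of that size. The 24-month-old and 3-month-old mice did not overlap for 7 members that were higher and 1 that was lower, where this held for 3.82% and 0.91% of all genes.

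The libraries held between 5.03 and 8.03 Gb of aligned bases. The 3-month-old libraries held 5.03 to 6.13 Gb, and the 24-month-old libraries 6.07 to 7.33 Gb. Size factors by median ratio were 0.898 to 0.967 at 3 months, 1.01 to 1.09 at 12 months and 0.995 to 1.05 at 24 months, so that this scaling lowers log2 differences between 24 and 3 months by up to 0.12 and those between 12 and 3 months by up to 0.14. The part of depth in the results below was not tested. Markers of the proximal tubule, where most of these enzymes are made, summed to 1241 to 1561 FPKM at 3 months and 1105 to 1545 FPKM at 24 months. Of these 8 markers 1 (Slc22a8) rose, 2 (Slc5a2 and Slc5a12) fell and 5 were not called. In whole-kidney RNA fewer cells of a type and less RNA per cell cannot be told apart.

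P450 RNA was concentrated in few genes. The 5 most abundant members (Cyp4b1, Cyp2e1, Cyp2j5, Cyp2a4 and Cyp4a10) held 67.6% of the family's FPKM at 3 months, 69.7% at 12 months and 64.6% at 24 months. The whole family took between 1.15% and 1.40% of a mouse's FPKM. Its sum ranged from 2666 to 3037 FPKM at 3 months, from 2802 to 3343 FPKM at 12 months and from 2594 to 3056 FPKM at 24 months, so that the ages overlapped. The Cyp2a share of this sum was 8.19% at 3 months, 13.1% at 12 months and 15.9% at 24 months, while the Cyp4a share was 20.9%, 11.2% and 16.2%. Among the 37 members the coefficient of variation between mice of one age had a median of 26.2% at 3 months, 24.8% at 12 months and 21.9% at 24 months, compared with 20.9%, 18.7% and 18.7% over all genes of that level.

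**Figure D1:**
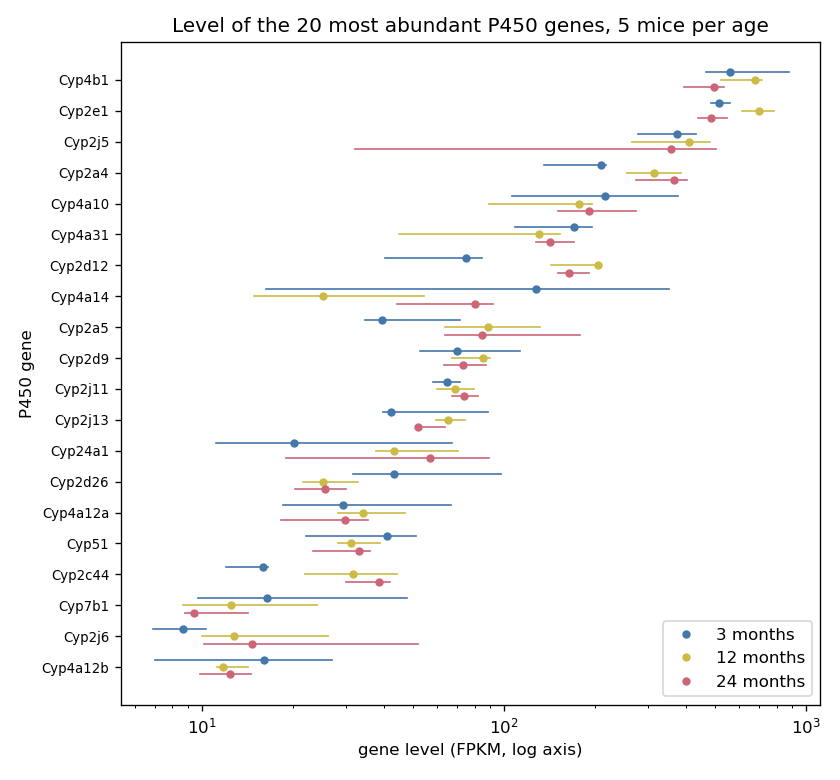
Level in FPKM (log axis) of the 20 most abundant P450 genes, with the median of 5 mice as a point and the lowest and highest mouse as a line, for 3, 12 and 24 months. Cyp4b1 and Cyp2e1 lead at every age, the lines of Cyp2d12, Cyp2a4 and Cyp2c44 at 24 months lie wholly above those at 3 months, and the long line of Cyp2j5 at 24 months comes from 1 mouse at 32.3 FPKM.

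In the Cyp2c subfamily only Cyp2c44 was abundant. The enzyme it encodes forms epoxides of arachidonic acid and is the main such Cyp2c enzyme described in mouse kidney. The gene lies on the minus strand at chr19:44005022-44029208 (coordinates here and below are GRCm38, over all transcripts of a gene). Its level was 12.02, 15.98, 16.5, 15.9 and 14.2 FPKM at 3 months, 31.8, 21.9, 26.2, 44.3 and 38.3 FPKM at 12 months and 32.98, 38.7, 41.9, 30.1 and 38.5 FPKM at 24 months. Each mouse of 12 or 24 months was above each mouse of 3 months. The log2 difference between 24 and 3 months was 1.23 ± 0.11 (moderated SE of limma), with an adjusted limma p of 0.0053. At 12 months it was already 1.04 ± 0.18 above 3 months, with an adjusted limma p of 0.0571, and the difference from 12 to 24 months was 0.19 ± 0.18. Its adjusted limma p for 24 against 3 months was under 0.05 in 17 of 18 alternative fits, with a range of 0.00272 to 0.0897. The other 9 Cyp2c genes had means under 1 FPKM and none was called in the same comparison.

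The Cyp2d subfamily held 8 genes, of which 4 were abundant and moved in different ways. Its enzymes oxidise drugs and steroids, and Cyp2d9 is a testosterone hydroxylase of male mice. Cyp2d12, on the plus strand at chr15:82555006-82559433, was at 40.3, 83.9, 84.4, 74.9 and 64.5 FPKM at 3 months, 205, 208, 206, 158 and 144 FPKM at 12 months and 162, 165, 192, 151 and 173 FPKM at 24 months. No mouse of 12 or 24 months was as low as the highest mouse of 3 months. The gene rose by a log2 difference of 1.31 ± 0.19 between 3 and 24 months (limma adjusted p = 0.0207) and of 1.42 ± 0.21 between 3 and 12 months (limma adjusted p = 0.0448). For 24 against 3 months the adjusted limma p was under 0.05 in 15 of 18 alternative fits, with a range of 0.00455 to 0.177.

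Cyp2d26, on the minus strand at chr15:82790107-82794245, moved the other way. Its level was 31.7, 97.98, 41.3, 75.8 and 43.3 FPKM at 3 months, 32.9, 21.6, 25.5, 23.4 and 25.2 FPKM at 12 months and 27.7, 25.5, 20.4, 23.6 and 30.1 FPKM at 24 months. Every 24-month-old mouse was below every 3-month-old mouse, and 3-month-old replicates 6 and 8 stood above the other young mice. The log2 difference was -1.04 ± 0.29 between 24 and 3 months (exact permutation p = 0.00794, limma adjusted p = 0.118) and -1.03 ± 0.29 between 12 and 3 months (limma adjusted p = 0.151). The call at 24 months held in 18 of 18 alternative fits.

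Neither Cyp2d9 nor Cyp2d22 was called at any age. Cyp2d9, at chr15:82452344-82456848, was at 52.9, 107, 61.7, 113 and 70.1 FPKM at 3 months, 89.7, 67.5, 87.01, 85.7 and 68.97 FPKM at 12 months and 73.5, 84.8, 63.5, 64.9 and 87.2 FPKM at 24 months. As for Cyp2d26, replicates 6 and 8 were the highest young mice. Cyp2d22 was at 5.62, 12.3, 5.93, 9.38 and 8.09 FPKM at 3 months, 10.5, 8.14, 6.37, 9.17 and 5.43 FPKM at 12 months and 5.79, 8.14, 7.67, 4.26 and 8.01 FPKM at 24 months. Their log2 differences between 24 and 3 months were -0.06 ± 0.22 and -0.23 ± 0.23. The coding sequence of Cyp2d12 is 92.1% identical to that of Cyp2d9, and that of Cyp2d9 93.3% identical to that of Cyp2d11, so fragments can be shared between them and the division of their FPKM is uncertain. The 4 assembled transcripts of Cyp2d12 held 88.1% of its FPKM at 3 months and 87.5% at 24 months.

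**Figure D2:**
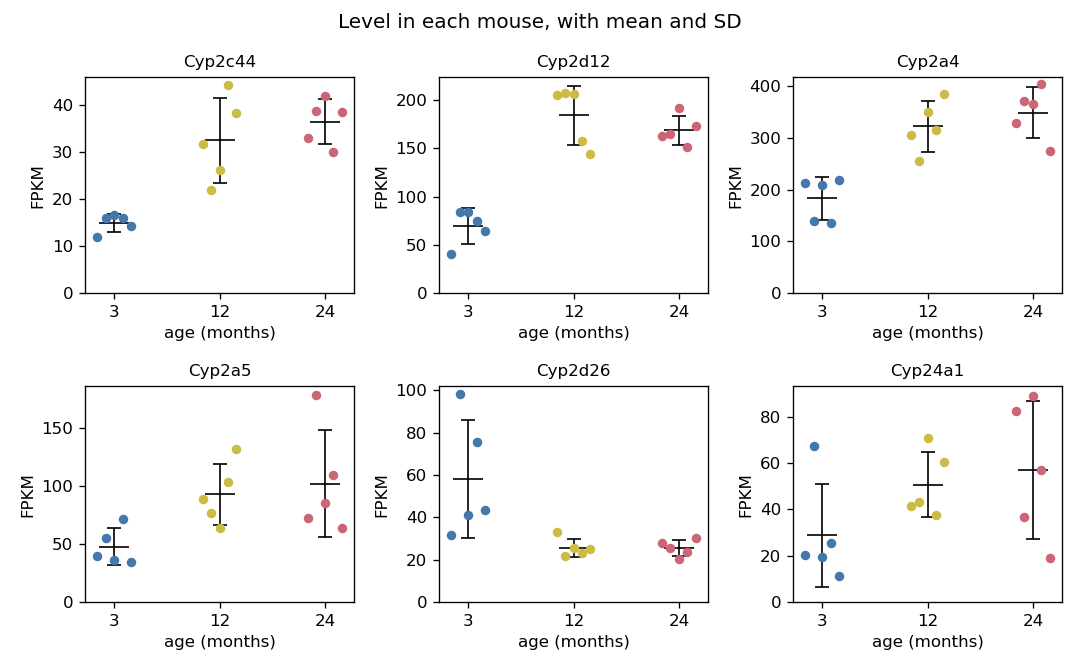
Level in FPKM of 6 P450 genes in each mouse (points), with mean and SD over 5 mice (bars), at 3, 12 and 24 months. Cyp2c44, Cyp2d12 and Cyp2a4 do not overlap between 3 and 24 months, Cyp2d26 lies lower at 24 months, and Cyp24a1 spreads from 19.01 to 89.01 FPKM at 24 months.

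Cyp2a4 and Cyp2a5 both rose. Cyp2a4 encodes a steroid hydroxylase and Cyp2a5 a coumarin hydroxylase, and in liver both are known targets of the clock output factor Dbp. The 140 bases from 150 to 11 bases before the RefSeq start of each gene are shown, followed by those of Cyp2d9 and Cyp2d26. They are from RefSeq on GRCm38.p6, 5′ to 3′ on the gene's strand. Capitals mark the letters TATAAA (the TATA box) and TTGCATAA (a C/EBP-type element, chosen after the sequences were seen), searched on both strands. The windows are chr7:26307042-26307181 (plus strand), chr7:26835189-26835328 (plus), chr15:82452227-82452366 (plus) and chr15:82794256-82794395 (minus), and some listed transcripts begin inside each of them but the last.
Cyp2a4: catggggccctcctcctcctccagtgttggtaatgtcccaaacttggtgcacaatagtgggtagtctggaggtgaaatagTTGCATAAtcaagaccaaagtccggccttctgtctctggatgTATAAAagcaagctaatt
Cyp2a5: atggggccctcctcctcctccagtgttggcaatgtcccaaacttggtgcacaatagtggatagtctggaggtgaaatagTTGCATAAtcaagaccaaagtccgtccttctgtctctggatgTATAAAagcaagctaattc
Cyp2d9: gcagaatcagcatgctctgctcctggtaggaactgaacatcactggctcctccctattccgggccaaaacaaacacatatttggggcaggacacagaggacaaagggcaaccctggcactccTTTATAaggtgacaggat
Cyp2d26: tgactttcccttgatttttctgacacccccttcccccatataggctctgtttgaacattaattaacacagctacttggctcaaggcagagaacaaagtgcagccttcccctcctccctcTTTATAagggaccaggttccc
TATAAA stood in all 4 windows on either strand and in 7.24% of 32851 promoter windows of the same length. TTGCATAA stood in the windows of Cyp2a4 and Cyp2a5 and in 0.429% of all. The D-box letters TTATGTAA were in none of the 4, and in 0.487% of all. Read on the other strand, TTGCATAA differs from these D-box letters at 1 base, and looser forms were not searched. Over the 299 bases of the full RefSeq windows that align with an offset of 1 base, Cyp2a4 and Cyp2a5 were identical at 294 (98.3%), while Cyp2d9 and Cyp2d26 matched at 99 of 297 bases (33.3%) without gaps. A match is a description of these letters and was not tested as a site. The part of these sequences in the differences with age was not tested.

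Cyp2a4, at chr7:26307169-26315088, was at 213, 139, 209.7, 135 and 218 FPKM at 3 months, 305, 256, 349, 315 and 385 FPKM at 12 months and 329, 370.2, 366, 404 and 274 FPKM at 24 months. Again the young mice lay below all others, with replicates 6 and 8 the lowest of them. The log2 difference between 24 and 3 months was 0.95 ± 0.19 (limma adjusted p = 0.0466), and it passed an adjusted p of 0.05 in 6 of 18 alternative fits, with a range of 0.0154 to 0.0998. At 12 months the difference was 0.83 ± 0.19 (limma adjusted p = 0.0959).

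Cyp2a5, at chr7:26835287-26843548, was at 39.6, 55.3, 36.01, 71.8 and 34.7 FPKM at 3 months, 88.9, 76.3, 64.1, 103 and 132 FPKM at 12 months and 72.6, 178, 84.9, 109 and 64.1 FPKM at 24 months. Here replicates 6 and 8 were the highest young mice, opposite to Cyp2a4, and replicate 8 overlapped the old mice. The log2 difference was 1.04 ± 0.30 at 24 months (limma adjusted p = 0.139) and 0.97 ± 0.25 at 12 months (limma adjusted p = 0.124). The coding sequences of the pair are 98.4% identical, so how reads were divided between them is uncertain. The sum over the Cyp2a subfamily ranged from 194 to 253 FPKM at 3 months, from 332 to 517 FPKM at 12 months and from 338.5 to 549 FPKM at 24 months, and 3-month-old mice did not overlap the others.

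Dbp, the clock output factor named above, was also higher at 12 and 24 months than at 3 months. It was at 0.406, 0.0624, 2.14, 1.59 and 1.67 FPKM at 3 months, 10.4, 12.04, 12.7, 4.89 and 12.3 FPKM at 12 months and 7.92, 23.7, 13.2, 10.5 and 6.44 FPKM at 24 months, which did not overlap between 3 months and either other age. Its log2 difference between 24 and 3 months was 2.60 ± 0.39 (limma adjusted p = 0.0216). Dbp RNA cycles strongly over the day, and the hour at which each mouse was killed is not given in the sources used here. The part of Dbp and of the hour in the P450 differences was not tested.

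Cyp2e1, the enzyme that oxidises ethanol and acetone, was the second most abundant member and was highest in middle age. It lies at chr7:140763739-140774987. The mice held 499, 528, 561, 484 and 516 FPKM at 3 months, 699.8, 613, 785, 776 and 613 FPKM at 12 months and 543, 461, 484, 441 and 547 FPKM at 24 months. Every 12-month-old mouse was above every 3-month-old and every 24-month-old mouse. Cyp2e1 rose from 3 to 12 months by a log2 difference of 0.42 ± 0.16 (exact permutation p = 0.00794, limma adjusted p = 0.269) and fell from 12 to 24 months by -0.49 ± 0.14 (exact permutation p = 0.00794, limma adjusted p = 0.676). The difference between 24 and 3 months was -0.07 ± 0.14, within the spread between mice. The call at 12 months was lost after median-ratio scaling (a log2 difference of 0.29) and when 3-month-old replicate 5 or 12-month-old replicate 19 or 20 was left out.

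The Cyp2j genes form a cluster on chromosome 4 and encode epoxygenases of arachidonic acid, of which Cyp2j5 is the main kidney form. In the gene fit 6 of 8 rose between 3 and 24 months (Cyp2j6, Cyp2j7, Cyp2j8, Cyp2j9, Cyp2j11 and Cyp2j12) and none fell, beside 11.4% of all genes higher and 3.47% lower. Cyp2j8 and Cyp2j12 had means under 1 FPKM. Several of these calls rest on assembled transcripts, as described below.

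Cyp2j5, at chr4:96628773-96664154, was at 373, 278, 434, 305 and 374 FPKM at 3 months, 409, 365, 267, 435 and 483 FPKM at 12 months and 503, 326, 357, 32.3 and 426 FPKM at 24 months. Only replicate 34 at 24 months stood apart, at 32.3 FPKM. The log2 difference between 24 and 3 months was -0.53 ± 0.67 and was 0.19 without that mouse, neither of them called. Cyp2j11 was at 71.4, 64.8, 69.9, 58.3 and 62.3 FPKM at 3 months, 79.8, 63.98, 69.7, 68.96 and 60.3 FPKM at 12 months and 81.2, 67.1, 73.9, 82.4 and 73.1 FPKM at 24 months, a log2 difference of 0.21 ± 0.08 (exact permutation p = 0.0397, limma adjusted p = 0.283). The call of Cyp2j11 was lost in 8 of 18 alternative fits, median-ratio scaling (0.09 on the log2 scale) among them. Cyp2j13 was at 88.7, 42.4, 63.5, 39.8 and 41.8 FPKM at 3 months, 72.05, 59.5, 65.6, 74.5 and 59.6 FPKM at 12 months and 51.4, 63.98, 52.1, 51.5 and 60.4 FPKM at 24 months and was not called against 3 months. It fell between 12 and 24 months by a log2 difference of -0.24 ± 0.09 (exact permutation p = 0.0476, limma adjusted p = 0.747), a call that was lost in 10 alternative fits.

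Cyp2j6, Cyp2j7 and Cyp2j9 were lower in level. Cyp2j7 was at 2.82, 2.26, 3.03, 1.55 and 2.50 FPKM at 3 months, 4.71, 3.99, 5.27, 2.98 and 6.22 FPKM at 12 months and 3.04, 3.24, 6.61, 5.42 and 5.01 FPKM at 24 months, with no overlap between 3 and 24 months. It rose at 24 months by 0.70 ± 0.20 (exact permutation p = 0.00794, limma adjusted p = 0.136) and at 12 months by 0.70 ± 0.18 on the log2 scale, the latter lost on annotated transcripts alone (0.22). Cyp2j9 was at 0.832, 0.922, 0.692, 0.455 and 0.862 FPKM at 3 months, 2.25, 2.43, 2.60, 0.965 and 2.47 FPKM at 12 months and 11.4, 1.24, 2.08, 1.83 and 3.75 FPKM at 24 months. Every mouse of 12 or 24 months lay above every mouse of 3 months, and replicate 31 was far above the other old mice. The log2 difference was 1.23 ± 0.41 (exact permutation p = 0.00794, limma adjusted p = 0.192). On annotated transcripts alone it was 0.46, still called.

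Cyp2j6 was at 8.93, 8.68, 10.3, 6.88 and 8.24 FPKM at 3 months, 14.3, 12.8, 26.1, 10.01 and 11.5 FPKM at 12 months and 10.8, 10.2, 18.3, 52.1 and 14.7 FPKM at 24 months. Replicates 19 and 34 stood above the other mice of their age. The summed value rose by 0.95 ± 0.38 (exact permutation p = 0.0159, limma adjusted p = 0.28), but the annotated Cyp2j6 transcript was at 4.93, 5.94, 8.21, 4.74 and 5.49 FPKM at 3 months, 6.22, 6.79, 4.73, 5.83 and 4.73 FPKM at 12 months and 5.59, 5.66, 5.79, 6.31 and 5.18 FPKM at 24 months. The call of the sum was lost in 7 of 18 alternative fits, and on annotated transcripts alone the log2 difference was -0.01. The rest of its value lay in assembled transcripts, which held 31.9% of the Cyp2j6 FPKM at 3 months, 62.1% at 12 months and 73.1% at 24 months.

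In the merged locus of Cyp2j5, Cyp2j6, Cyp2j8 and Cyp2j9, 7 listed transcripts span 2 or more of these genes. Summed, the spanning transcripts were at 4, 2.73, 2.08, 2.14 and 2.76 FPKM at 3 months, 8.08, 5.97, 21.4, 4.18 and 6.75 FPKM at 12 months and 5.25, 4.53, 12.5, 45.8 and 9.50 FPKM at 24 months. All young mice were at or under 4 FPKM, and all others above. A single such transcript of 28 exons and 48.7 kb, assigned to Cyp2j6 and covering chr4:96489878-96664134, was at 37.1 FPKM in replicate 34 at 24 months and under 0.02 FPKM in every other mouse. That is the mouse in which Cyp2j5 was listed at 32.3 FPKM. The FPKM of single genes in this locus is therefore uncertain, for Cyp2j6 and Cyp2j9 most of all.

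**Figure D3:**
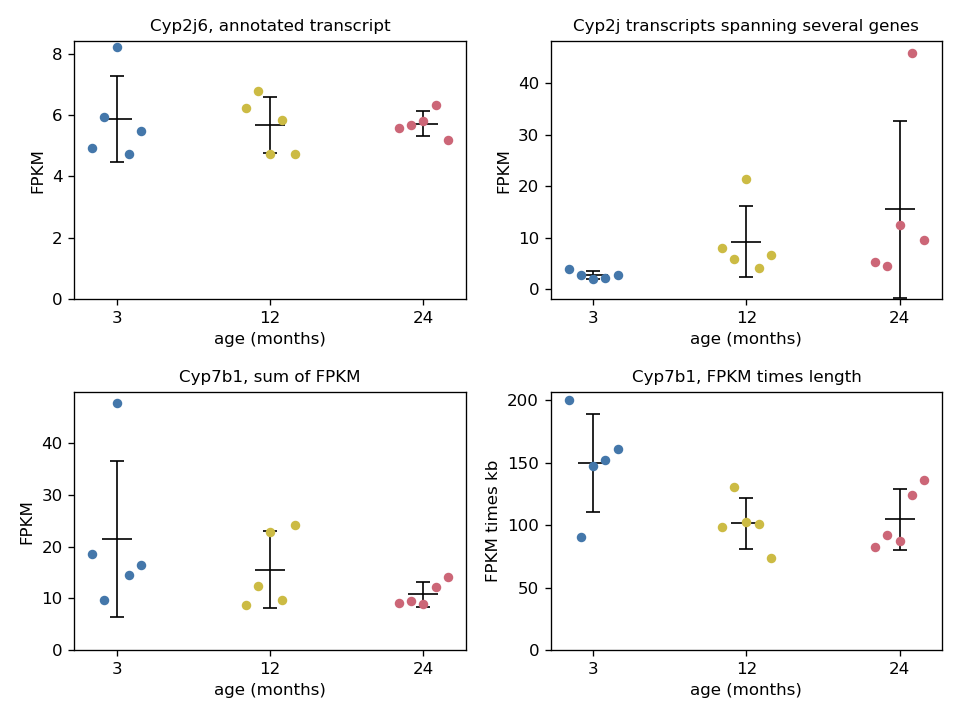
Values in each mouse (points) with mean and SD over 5 mice (bars) at 3, 12 and 24 months, for the annotated Cyp2j6 transcript, the summed Cyp2j transcripts that span several genes, and Cyp7b1 as summed FPKM and as FPKM times length in kb. The annotated Cyp2j6 transcript stays between 4.73 and 8.21 FPKM, the spanning transcripts reach 45.8 FPKM in 1 old mouse, and the 3-month-old mouse at 47.8 FPKM of Cyp7b1 is at 147 FPKM times kb, among the other young mice.

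The Cyp4a genes, fatty acid omega-hydroxylases that are targets of Ppara, varied widely among the young mice. None of the 8 was called between 24 and 3 months. Cyp4a14, on the minus strand at chr4:115485786-115496173, was at 75.9, 353, 16.3, 127 and 129 FPKM at 3 months, 54.5, 18.1, 44.2, 25.1 and 14.9 FPKM at 12 months and 84.7, 44.4, 73.8, 80.1 and 91.9 FPKM at 24 months. The young mice ran from replicate 7 at the low end to replicate 6 at the high end, and replicates 6, 8 and 9 lay above every older mouse. Cyp4a14 fell between 3 and 12 months by a log2 difference of -1.72 ± 0.72 (exact permutation p = 0.0714, limma adjusted p = 0.32), a call lost when any one of 7 mice was left out and on annotated transcripts alone. It rose between 12 and 24 months by 1.35 ± 0.36 (exact permutation p = 0.0159, limma adjusted p = 0.665). Between 24 and 3 months the difference was -0.37 ± 0.67, and it ran from -0.98 without 3-month-old replicate 7, where it was called, to 0.10 without replicate 6.

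Cyp4a10 was at 188, 377, 106, 316 and 216 FPKM at 3 months, 196, 128, 178, 189 and 89.2 FPKM at 12 months and 151, 189, 191, 203 and 274 FPKM at 24 months. Replicates 6 and 8 were again the highest of the young mice. Cyp4a31, at 96.6% coding identity to Cyp4a10, was at 165, 196, 109, 171 and 177 FPKM at 3 months, 144, 131, 154, 117 and 45.03 FPKM at 12 months and 128, 138, 143, 155 and 170.5 FPKM at 24 months. The log2 differences between 24 and 3 months were -0.15 ± 0.32 for Cyp4a10 and -0.13 ± 0.16 for Cyp4a31, within the spread between mice. Cyp4a32, which is 97.2% identical to Cyp4a10, was low at 0.655, 1.14, 0.340, 1.45 and 1.12 FPKM at 3 months, 1.45, 1.37, 2.11, 0.571 and 0.286 FPKM at 12 months and 1.80, 0.967, 0.800, 2.23 and 0.683 FPKM at 24 months.

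The pair Cyp4a12a and Cyp4a12b encodes omega-hydroxylases of arachidonic acid in male kidneys and responds to androgen. The 2 coding sequences are 98.5% identical. Cyp4a12a was at 66.7, 26.6, 18.6, 40.9 and 29.3 FPKM at 3 months, 30.9, 34.2, 28.2, 39.1 and 47.2 FPKM at 12 months and 23.8, 35.4, 29.8, 18.3 and 34.2 FPKM at 24 months. Cyp4a12b was at 16.9, 13.6, 7, 16.1 and 27.1 FPKM at 3 months, 14.3, 11.2, 11.7, 11.8 and 13.8 FPKM at 12 months and 12.4, 12.1, 13.9, 9.87 and 14.6 FPKM at 24 months. Their log2 differences of -0.26 ± 0.32 and -0.23 ± 0.28 between 24 and 3 months were not called, and Cyp4a12b was called lower (-0.48) once 3-month-old replicate 7 was left out. Cyp4a31 was also called lower without that mouse (-0.27).

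Cyp4b1, the most abundant member, is known in rodent kidney for the oxidation of furans and fatty acids. It lies on the minus strand at chr4:115615589-115647723. Its level was 876, 466, 626, 561 and 546 FPKM at 3 months, 680.1, 524, 556, 709 and 715 FPKM at 12 months and 537, 396, 529.7, 496 and 481 FPKM at 24 months. The 12-month-old mice overlapped the old mice only at the low end. It fell from 12 to 24 months by a log2 difference of -0.38 ± 0.16 (exact permutation p = 0.0238, limma adjusted p = 0.747), a call that was lost in 9 alternative fits. The difference between 24 and 3 months was -0.31 ± 0.20, not called.

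Among the vitamin D enzymes, the catabolic gene was called higher at 12 months and not at 24 months, and the synthetic one varied widely. Cyp24a1, the hydroxylase that inactivates calcitriol and is induced by the vitamin D receptor, lies on the minus strand at chr2:170482657-170497145. The mice held 20.2, 67.4, 19.6, 25.6 and 11.1 FPKM at 3 months, 41.3, 43.2, 70.6, 37.8 and 60.5 FPKM at 12 months and 82.5, 36.5, 89.01, 57.2 and 19.01 FPKM at 24 months. Replicate 6 stood above the other young mice and replicate 35 below the other old mice. Cyp24a1 rose between 3 and 12 months by a log2 difference of 1.01 ± 0.41 (exact permutation p = 0.0556, limma adjusted p = 0.3), a call lost when any one of 5 mice was left out, after median-ratio scaling (0.88) and on annotated transcripts alone (0.82). At 24 months the difference was 1.02 ± 0.52 (exact permutation p = 0.127), not called. It was called in 3 of 18 alternative fits, which were without replicate 6 (1.38), without replicate 35 (1.35) and with all 15 mice in 1 fit.

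Cyp27b1, the hydroxylase that makes calcitriol, lies at chr10:127047895-127053006. Its level was 2.87, 1.20, 5.47, 1.53 and 8.04 FPKM at 3 months, 4.28, 6.20, 2.49, 4.87 and 4.38 FPKM at 12 months and 6.61, 5.94, 5.16, 2.56 and 9.96 FPKM at 24 months. The young mice spread from the lowest value to nearly the highest, and the ages overlapped. The log2 difference was 0.67 ± 0.43 at 24 months (exact permutation p = 0.191), and it was called on annotated transcripts alone (0.93) and without 3-month-old replicate 9 (0.95). Of the genes for the first hydroxylation of vitamin D, Cyp27a1 was at 10.4, 18.04, 14.3, 13.5 and 12.04 FPKM at 3 months, 14.6, 12.98, 13.1, 11.3 and 13.4 FPKM at 12 months and 13.1, 13.3, 11.8, 13.8 and 12.4 FPKM at 24 months, a log2 difference of -0.06 ± 0.12. Cyp2r1 had a mean of 0.673 FPKM at 3 months and 0.798 FPKM at 24 months, not called. Within the young mice, replicate 6 had the highest Cyp24a1 and the lowest Cyp27b1, and replicate 9 the reverse. Among the old mice, replicate 35 had the lowest Cyp24a1 and the highest Cyp27b1, but the reverse was not found in any 1 old mouse. Replicate 33 had the highest Cyp24a1 with Cyp27b1 at 5.16 FPKM, and replicate 34 the lowest Cyp27b1 with Cyp24a1 at 57.2 FPKM.

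The enzymes of the Cyp4f and Cyp4v subfamilies hydroxylate leukotrienes and long-chain fatty acids. Between 3 and 24 months 3 of 8 Cyp4f genes and Cyp4v3 rose and none fell, beside 11.4% of all genes higher and 3.47% lower. They rose by 0.25 to 0.57 on the log2(FPKM + 1) scale. This scale understates the change of Cyp4f15, whose mean was 0.645 FPKM at 3 months and 1.45 FPKM at 24 months. Cyp4f13 was at 10.1, 9.25, 11.8, 10.5 and 10.3 FPKM at 3 months, 13.6, 14.3, 14.1, 13.5 and 14.6 FPKM at 12 months and 10.7, 13.8, 13.97, 13.9 and 11.3 FPKM at 24 months, higher in every 12-month-old mouse than in any young mouse. Its log2 difference was 0.40 ± 0.06 at 12 months (limma adjusted p = 0.0495) and 0.27 ± 0.09 at 24 months (exact permutation p = 0.0397, limma adjusted p = 0.224). Cyp4f15, Cyp4f16 and Cyp4v3 were lower in level.

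Cyp4f15 was at 1.14, 0.906, 0.418, 0.457 and 0.303 FPKM at 3 months, 1.05, 0.679, 1.51, 1.29 and 1.33 FPKM at 12 months and 1.15, 1.32, 2.24, 0.682 and 1.88 FPKM at 24 months (log2 difference at 24 months 0.57 ± 0.21, limma adjusted p = 0.243). Cyp4f16 was at 3.13, 4.43, 4.92, 2.94 and 2.96 FPKM at 3 months, 4.21, 4.78, 4.34, 3.95 and 4.85 FPKM at 12 months and 4.58, 6.61, 7.65, 4.08 and 4.37 FPKM at 24 months (log2 difference 0.45 ± 0.19, exact permutation p = 0.0714, limma adjusted p = 0.292). Cyp4v3 was at 2.001, 2.36, 2.09, 2.10 and 2.58 FPKM at 3 months, 2.91, 2.83, 2.001, 2.71 and 2.55 FPKM at 12 months and 2.46, 2.61, 2.67, 2.90 and 3.63 FPKM at 24 months (log2 difference 0.25 ± 0.10, limma adjusted p = 0.287). In all 3 genes young and old mice overlapped. The Cyp4f15 call was lost when 3-month-old replicate 7 or 9 or 24-month-old replicate 33 or 35 was left out, with differences of 0.46 to 0.52. Median-ratio scaling ended the calls of Cyp4f13 (a log2 difference of 0.16), Cyp4f16 (0.36) and Cyp4v3 (0.17) at 24 months, and the Cyp4f13 call was also lost on annotated transcripts alone (0.06), as was the Cyp4f13 call at 12 months (0.18).

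**Figure D4:**
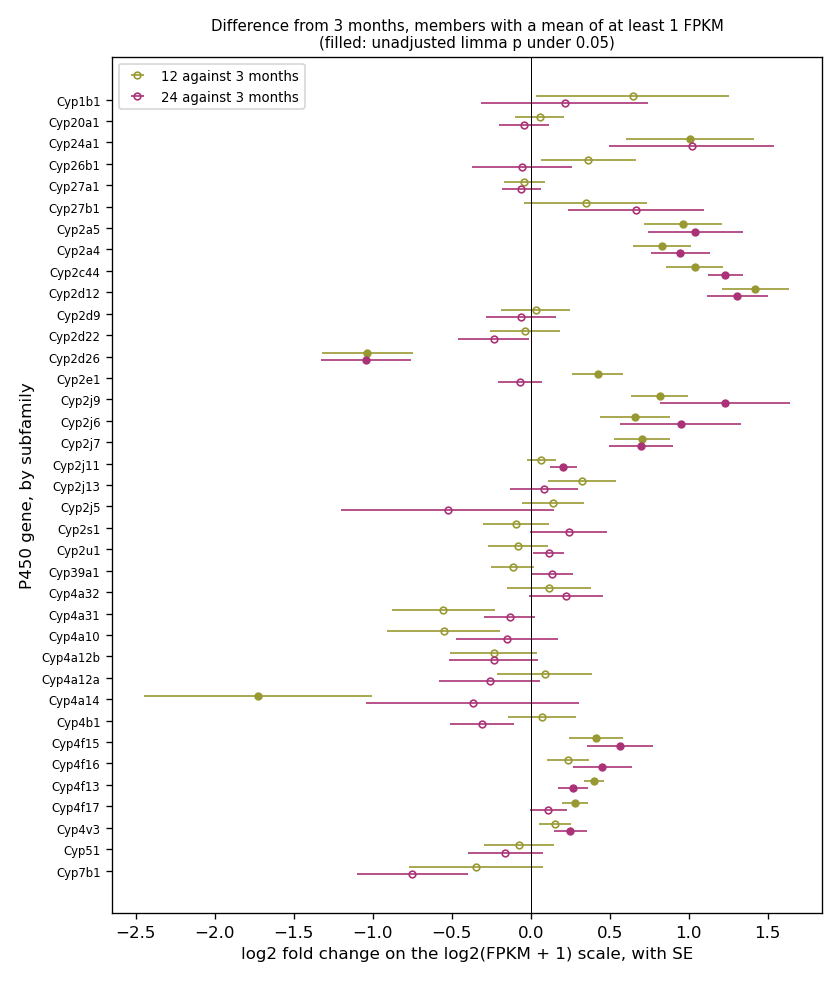
Log2 difference on the log2(FPKM + 1) scale, with SE, of the 37 P450 genes with a mean of at least 1 FPKM, for 12 against 3 months and 24 against 3 months (5 mice per age), ordered by subfamily. Filled points have an unadjusted limma p under 0.05. Cyp2d12 is highest at 12 months at 1.42 and Cyp2d26 is near -1 at both ages. Both differences share the 3-month-old mice.

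Between 12 and 3 months 18 members rose and 2 fell, 23.8% of the 84 tested, where 14.3% of 31637 genes were called (11.4% higher and 2.9% lower). In the subset of at least 1 FPKM 14 of 37 were called, beside 18.4% of genes. With the fold limit there were 5 members, beside 0.499% of all genes. Of the 84, 8 were higher and 0 lower without overlap, where 3.45% and 0.667% of all genes were. Cyp2d12 and Cyp4f13 had an adjusted limma p under 0.05, beside 0.25% of all genes. The members called at 12 months in the subset of at least 1 FPKM included Cyp2c44, Cyp2d12, Cyp2a4, Cyp2a5, Cyp2d26, Cyp2j6, Cyp2j7 and Cyp2j9, with Cyp2e1, Cyp24a1, Cyp4f17 and Cyp4a14 called at 12 and not at 24 months. That a gene was called at one age and not at the other was not tested as a difference, and both comparisons use the same young mice. Between 24 and 12 months 2 members rose and 3 fell, 5.75% of the 87 tested, where 6.43% of 32282 genes were called (3.07% higher and 3.36% lower). The fold limit left 1 of them (Cyp4a14), beside 0.17% of all genes. Cyp2e1 was the 1 member lower without overlap and 0 were higher, where this held for 0.573% and 0.493% of all genes. None of the 5 had an adjusted limma p under 0.05, as for all but 1 gene of the table (0.0031%). In the F test over the 3 ages 18 of 88 members had an unadjusted p under 0.05 (20.5%), where 14.7% of 33058 genes did. By limma's F test 4 members had an adjusted p under 0.05, Cyp2c44 (0.00819), Cyp2d12 (0.00533), Cyp2a4 (0.0253) and Cyp4f13 (0.04996), where 1.47% of all genes passed.

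The 51 members with little RNA include the steroidogenic enzymes of adrenal and gonad. Cyp11a1, Cyp11b1, Cyp11b2 and Cyp21a1 had means between 0.000713 and 0.0104 FPKM and no mouse above 0.0401 FPKM. Cyp17a1, a hydroxylase and lyase of steroid synthesis, was higher, with 0.0733 to 0.464 FPKM over the 15 mice and a mean of 0.261 FPKM, and was not called. Of the 51, 7 rose between 3 and 24 months and 1 fell (15.7%), where 14.9% of all genes of any level were called. Of the 18 members with means of 0.1 to 1 FPKM, 6 rose and 1 fell (38.9%). Of the 33 members under 0.1 FPKM, 1 rose (3.03%). The share of all genes at these levels was not computed. Cyp46a1, a cholesterol hydroxylase, had means of 0.401 FPKM at 3 months and 0.597 FPKM at 24 months without overlap. Cyp26a1, which clears retinoic acid, had means of 0.0398 and 0.162 FPKM. Cyp2b9 had means of 0.126 and 0.331 FPKM, and Cyp2b10 of 0.246 and 0.0738 FPKM. Cyp4x1os was listed at 0 in 11 of the 15 mice, all young mice among them, and was not called.

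Cyp7b1, an oxysterol hydroxylase, is given because of its isoforms and was chosen after its values were seen. It spans chr3:18067398-18243338. Its summed value was 18.7, 9.71, 47.8, 14.6 and 16.4 FPKM at 3 months, 8.68, 12.5, 22.9, 9.70 and 24.1 FPKM at 12 months and 9.06, 9.41, 8.83, 12.3 and 14.2 FPKM at 24 months. Replicate 7 at 3 months and replicates 19 and 21 at 12 months were the highest. In those 3 mice the annotated transcript of 2.17 kb was at 45.2, 19.7 and 22.8 FPKM and an assembled transcript of 8.30 kb was at 0. In every other mouse the annotated transcript was at or under 0.982 FPKM and the assembled one at 4.87 to 12.8 FPKM. Multiplied by length, which makes the sum independent of how fragments are divided between isoforms, Cyp7b1 was at 200, 90.6, 147, 152 and 161 FPKM times kb at 3 months, 98.8, 130.5, 102, 101 and 73.8 FPKM times kb at 12 months and 82.6, 91.7, 87.5, 124 and 136 FPKM times kb at 24 months. Replicate 7 then lay among the other young mice. The log2 difference between 24 and 3 months was -0.75 ± 0.35 on summed FPKM (exact permutation p = 0.0397) and -0.50 on FPKM times length, where it was called, an alternative chosen after seeing the data.

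At transcript level 28 of 233 tested member transcripts were called between 24 and 3 months (12.0%), 22 higher and 6 lower, where 7.9% of 124719 transcripts were called (5.43% higher and 2.47% lower). With the fold limit there were 10, beside 0.795% of all. None had an adjusted limma p under 0.05, as for all but 0.0192% of transcripts. All 5 Cyp2d12 transcripts, 4 assembled and 1 annotated, rose. The one with the smallest p, of 2.18 kb and 7 exons, was at 5.05, 9.75, 3.89, 6.87 and 6.48 FPKM at 3 months, 29.6, 29.1, 25.03, 10.9 and 12.7 FPKM at 12 months and 19.3, 15.7, 33.5, 25.9 and 21.5 FPKM at 24 months, a log2 difference of 1.71 ± 0.25 (limma adjusted p = 0.111). The next by p rose by 2.05 ± 0.31 and 1.38 ± 0.22. A Cyp2j6 transcript of 19 exons that spans 3 members rose by 1.05 ± 0.16, from a mean of 1.70 to 4.70 FPKM. An assembled Cyp4f13 transcript rose by 1.03 ± 0.21, and the single annotated Cyp2a4 transcript by 0.95 ± 0.22.

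Circular RNAs, made by back-splicing of exons or from introns, were listed for 11 of the P450 genes, with 38 circles of 11929. Of these, 16 had a higher estimated count at 24 than at 3 months and none a lower one by edgeR (42.1%), where 28.8% of 11924 circles were called (14.6% higher and 14.2% lower). With an adjusted edgeR p under 0.05 there were 13, beside 13.3% of all, and 1 passed the fold limit, beside 1.43%. All 3 circles each of Cyp2j6, Cyp2j7 and Cyp2j9 rose, 6 of 8 of Cyp2j11 and 1 of 2 of Cyp2d12. None of the 8 circles of Cyp2j5, the 6 of Cyp2j13, the 2 of Cyp2e1 or the 1 of Cyp4b1 was called. Circles of one gene are nested and can share reads, and how their counts were estimated is not given in the sources used here, so they are not independent of the linear values.

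The Cyp2d12 circle, exonic at chr15:82556201-82558539, was at 1449, 3051, 2980.0, 2856 and 2158 estimated counts at 3 months, 9165, 7847, 8462, 4812 and 6209 estimated counts at 12 months and 6649, 5852, 6734, 6150.0 and 6558 estimated counts at 24 months. No old or middle-aged mouse overlapped the young ones, as for the linear gene. The counts given here were not scaled for library size, while the edgeR log2 differences were (TMM). It rose by a log2 difference of 1.20 ± 0.17 (edgeR adjusted p = 0.00144). An exonic Cyp2j7 circle at chr4:96199336-96230138 was at 472, 280.3, 416, 257 and 277 estimated counts at 3 months, 722, 543, 647, 412 and 662 estimated counts at 12 months and 965, 552, 749.8, 752 and 548 estimated counts at 24 months, a log2 difference of 0.90 ± 0.19 (edgeR adjusted p = 0.0088). A Cyp2j6 circle at chr4:96523703-96545861 was at 622, 373, 465, 341 and 385 estimated counts at 3 months, 761, 678, 834, 488 and 888 estimated counts at 12 months and 946, 644, 814, 922 and 721 estimated counts at 24 months, a log2 difference of 0.72 ± 0.15 (edgeR adjusted p = 0.00946). In both the lowest old mouse was above the highest young one on these unscaled counts. The share of all circles without such overlap was not computed. The remaining 3 of the 6 circles with the smallest p, a smaller exonic and an intronic one of Cyp2j7 and a smaller one of Cyp2j6, rose by 0.94, 0.94 and 0.79 on the log2 scale.

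The partners of the P450 enzymes were described from lists of 51 genes. Between 24 and 3 months 8 rose and 8 fell, beside 11.4% of all genes higher and 3.47% lower, with a median log2 difference of -0.0014. Of 11 electron donors and heme genes, 2 rose and 4 fell. Por, the electron donor of all microsomal P450 enzymes, was at 82.2, 74.05, 72.01, 69.7 and 60.3 FPKM at 3 months, 88.2, 77.8, 102, 104 and 105 FPKM at 12 months and 92.7, 123, 78.4, 109.8 and 93.1 FPKM at 24 months. It rose by 0.46 ± 0.13 on the log2 scale (exact permutation p = 0.0159, limma adjusted p = 0.132), and on annotated transcripts alone the difference was -0.03. Cyb5r3, a reductase of cytochrome b5, rose by 0.46 ± 0.13 (exact permutation p = 0.0238). Alas1, the first enzyme of heme synthesis, was at 86.7, 59.2, 84.7, 119 and 84.5 FPKM at 3 months, 61.3, 57.3, 57.8, 50.4 and 44.5 FPKM at 12 months and 36.3, 64.2, 35.2, 53.8 and 49.7 FPKM at 24 months. It fell with a log2 difference of -0.85 ± 0.21 (exact permutation p = 0.0159, limma adjusted p = 0.0936). The heme-degrading Hmox1 fell from a mean of 38.7 to 9.58 FPKM (exact permutation p = 0.00794). Cyb5b and Pgrmc1, both heme-binding partners of P450 enzymes, fell from 65.6 to 24.01 FPKM and from 53.9 to 28.7 FPKM. Their exact permutation p values were 0.03175 for Cyb5b and 0.151 for Pgrmc1. None of Cyb5r3, Hmox1, Cyb5b and Pgrmc1 had an adjusted limma p under 0.05. The calls of Cyb5b and Pgrmc1 were lost in 7 and 8 of 18 alternative fits.

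Among 15 regulators 5 rose and none fell, beside the same 11.4% and 3.47% of all genes. Beside Dbp, they included Tef, a clock output factor related to Dbp (22.98 to 38.9 FPKM, log2 difference 0.74 ± 0.26) and the xenobiotic receptors Nr1i2 (1.74 to 2.59 FPKM, 0.41 ± 0.15) and Nr1i3 (0.123 to 0.314 FPKM, 0.22 ± 0.07). Their adjusted limma p values were 0.209, 0.253 and 0.178. The Nr1i2 call was lost in 4 of 18 alternative fits, annotated transcripts alone among them, and the Tef call on FPKM times transcript length. Ppara, the regulator of the Cyp4a genes, was at a mean of 17.5 FPKM at 3 months and 21.1 FPKM at 24 months and was not called.

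Of 7 eicosanoid and epoxide genes, the epoxide hydrolase Ephx1 rose and the prostaglandin synthase Ptgs2 fell. Ephx1 was at 16.2, 21.5, 12.01, 19.9 and 20.9 FPKM at 3 months, 21.1, 17.1, 27.6, 28.4 and 19.02 FPKM at 12 months and 32.8, 35.4, 38.9, 34.1 and 36.3 FPKM at 24 months, and all old mice lay above all young ones. It rose by 0.96 ± 0.15 (limma adjusted p = 0.0216), and on annotated transcripts alone the difference was 0.98 and not called. Ephx2, the soluble hydrolase that clears arachidonic acid epoxides, was at 116, 70.3, 111, 84.02 and 108 FPKM at 3 months, 108, 103, 92.6, 100.1 and 106 FPKM at 12 months and 98.4, 90.4, 85.1, 88.9 and 87.9 FPKM at 24 months and was not called. Ptgs2 had means of 1.59 and 0.717 FPKM, with a log2 difference of -0.56 ± 0.18.

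Of 11 vitamin D partners none rose, and Trpv5 and Slc34a3 fell, where 14.9% of all genes were called in either direction. Trpv5, a calcium channel of the distal tubule, was at 5.24, 4.92, 5.37, 6.21 and 5.88 FPKM at 3 months, 3.29, 4.88, 2.78, 3.39 and 4.13 FPKM at 12 months and 3.30, 3.73, 3.26, 3.10 and 3.06 FPKM at 24 months, without overlap between young and old mice. The log2 difference was -0.60 ± 0.08 (limma adjusted p = 0.0146). Slc34a3, a phosphate transporter, had means of 8.61 and 7.01 FPKM (-0.26 ± 0.10). The Trpv5 call was lost on annotated transcripts alone (-0.47) and the Slc34a3 call in 6 of 18 alternative fits. Vdr, the vitamin D receptor, was at 29.4, 46.3, 26.1, 39.1 and 30.9 FPKM at 3 months, 35.2, 28.7, 36.9, 37.5 and 34.8 FPKM at 12 months and 32.03, 35.01, 29.5, 27.7 and 26.9 FPKM at 24 months and was not called, with a log2 difference of -0.16 ± 0.15. Of 7 androgen axis genes, Gusb fell with a log2 difference of -0.26 ± 0.11 (exact permutation p = 0.0714), a call lost in 8 of 18 alternative fits. The androgen-dependent Kap was not called, with a log2 difference of -0.22 ± 0.81 (exact permutation p = 0.365). Between 24 and 12 months 3 of these 7 genes were called lower and 0 higher. Of all 51 partner genes 7 were lower and 3 higher in that comparison, where 3.36% and 3.07% of all genes were.

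Markers of other cells moved in part with age, and were not called for thick limb, distal convoluted tubule, collecting duct, podocyte, macrophage or fat at 24 months. All 3 B lineage genes rose and summed to 9.82 to 93.1 FPKM at 3 months and 86.7 to 198.5 FPKM at 24 months. Cd3e, 1 of 2 T cell genes, and Pecam1, 1 of 3 endothelial genes, rose. The 3 collecting duct genes had a median log2 difference of -0.73, and summed to 39.5 to 165 FPKM at 3 months and 30.3 to 75.9 FPKM at 24 months. Of 4 hepatocyte genes 1 (Alb) rose, and the list summed to 27.5 to 81.7 FPKM at 3 months and 48.9 to 82.0 FPKM at 24 months. Of 5 adrenal genes beside the P450 enzymes Star and Mc2r rose and Akr1b7 fell. The list summed to 1.91 to 6.37 FPKM at 3 months and 2.62 to 4.76 FPKM at 24 months. The defining factor Nr5a1 was near 0 at every age. Its mean log2(FPKM + 1) was 0.00689 at 3 months, 0.011 at 12 months and 0 at 24 months. The part of these cells in the P450 differences was not tested.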

How the data were processed

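RNA of 15 male mouse kidneys, 1 library per mouse, was taken as deposited. Per the labels, ribosomal RNA was removed with Ribo-Zero and a stranded TruSeq kit was used, while the study's methods describe oligo(dT) selection, so the preparation is uncertain. The authors trimmed reads, aligned them to GRCm38 (HISAT2 in the methods, and TopHat and TopHat2 in the submitters' processing notes) and assembled transcripts with StringTie. The deposited linear table gives FPKM and coverage per transcript, both from the authors' StringTie run. No counts of linear fragments were used, so counting error per gene is unknown. The aligned bases per library were estimated as the median of deposited coverage divided by FPKM, over transcripts above 1 FPKM in that library. The deposited circular table gives estimated counts, most of them not whole, and FPKM values by the authors, the latter not used here. How they were estimated is not given in the sources used here.

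FPKM of transcripts with class codes =, c, j and o (annotated or overlapping by assembly) were summed per gene. Genes with any value in the mice compared were fitted with limma 3.58.1 in R 4.3.3 (trended empirical Bayes) on log2(FPKM + 1), 2-sided, with the 10 mice of both ages and without covariates. Adjusted p values are Benjamini-Hochberg over all genes tested. Single named genes were also given an exact permutation test (scipy 1.17.1), a choice made after seeing the data. Fold changes on this scale understate those of low genes. For genes and transcripts the SE after ± is limma's moderated SE. It is pulled toward a trend over all genes or transcripts fitted, so it can differ from the spread between mice. Circular counts were rounded, kept when above 0 in at least 5 of the 10 mice and tested with edgeR 4.0.16 (quasi-likelihood, TMM), with DESeq2 1.42.0 as an alternative. Both fits were tested on simulated data in which genes or circles were independent of each other. Nested circles that share reads were not simulated. The 5 mice of an age are separate animals, and their replicate numbers are those of the labels. All columns of per-mouse values were mapped to a sample.

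The members and lists were chosen with earlier results of these data known. Named with full values were the members of at least 1 FPKM in subfamilies 2c, 2d, 2e, 2j, 4a and 4b and among the vitamin D enzymes, and other members of that level called between 24 and 3 months (28 in all), together with the called partner genes, Por, Vdr and Ephx2, and at most 6 transcripts and 6 circles by p. Some partner genes are counted in their lists but not reported here by name. Cyp7b1 and other genes named were added after their values were seen. Alternatives were another pseudocount (0.1), a mean of at least 1 FPKM, annotated transcripts only, TPM, median-ratio scaling, a robust variance prior, all 15 mice in 1 fit, FPKM times transcript length and leaving out each mouse. Promoters came from RefSeq (66 members matched) and coding identity from the reference annotation. Tables were handled with Python 3.11.15 and pandas 2.3.3.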

Additional observations from a re-analysis of the deposited data

Results flagged for a closer look

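In groups of 5 mice a value was singled out when its gap to the nearest other mouse was more than 0.71 of the whole range of the group. Of 84 groups examined (28 genes at 3 ages) 5 held such a mouse, and chance gives about 1 in 20 groups.

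Cyp24a1 in 3-month-old replicate 6 was at 67.4 FPKM, where the other young mice were at 11.1 to 25.6 FPKM. Cyp2j6 was at 26.1 FPKM in 12-month-old replicate 19, with the others at 10.0 to 14.3 FPKM, and at 52.1 FPKM in 24-month-old replicate 34, with the others at 10.2 to 18.3 FPKM. Both values lay mostly in assembled transcripts, which held 81.9% and 87.9% of Cyp2j6 in these mice. Cyp2j9 was low in 12-month-old replicate 20 at 0.965 FPKM, with the others at 2.25 to 2.60 FPKM, and high in 24-month-old replicate 31 at 11.4 FPKM, with the others at 1.24 to 3.75 FPKM, of which 94.5% was in assembled transcripts.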

How the results depend on the processing

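Between 24 and 3 months 21 members were called. The count was 13 when genes with a mean of at least 1 FPKM in the mice compared were fitted alone, 5 with an absolute log2 difference above 1, 3 with adjusted p under 0.05 (limma, Benjamini-Hochberg) and 16 to 22 with 1 mouse left out. Between 12 and 3 months (20 called) it was 13 when fitted with that minimum (14 of the 37 in the fit of all genes), 13 on annotated transcripts, 5 with the fold limit, 2 after adjustment and 17 to 20 with 1 mouse left out. Between 24 and 12 months (5 called) it was 3 on TPM, 2 with all 15 mice in 1 fit, 1 with the fold limit, 0 after adjustment and 3 to 7 with 1 mouse left out, the 3 being without 24-month-old replicate 32. The F test called 18, 4 after adjustment and 15 to 20 with 1 mouse left out. Of the partner genes 16 were called, 4 with the fold limit, 3 after adjustment and 12 to 16 with 1 mouse left out. Of the transcripts 28 were called, 17 with the minimum, 10 with the fold limit, 0 after adjustment and 24 to 32 with 1 mouse left out. Of the circles 16 were called by edgeR, 18 by DESeq2, 1 with the fold limit and 16 to 21 with 1 mouse left out. The other settings kept each count within 1.5 times.

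Log2 differences between 24 and 3 months that turned direction on annotated transcripts alone were Cyp2j6 (-0.0136, and -0.0331 for 12 against 3 months), Por (-0.0314), Cyp27a1 (0.0017), Cyp2j13 (-0.0505), Cyp4a31 (0.1651) and Vdr (0.1909). Of these, the sums of Cyp2j6 and Por had been called. Median-ratio scaling turned Cyp2j13 (-0.0318). With 1 mouse left out, the difference ran from -0.1429 to 0.041 for Cyp27a1, from -0.1979 to 0.0734 for Cyp2d9, from -0.0148 to 0.2692 for Cyp2j13, from -0.7909 to 0.1898 for Cyp2j5, from -0.4118 to 0.0429 for Cyp4a10 and from -0.9842 to 0.1048 for Cyp4a14. The turns came without 3-month-old replicate 6 or 8, and for Cyp2j5 without 24-month-old replicate 34, and none of these 6 genes was called with all mice. The causes were not tested.

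No paired analysis was possible because the ages share no replicate numbers. FPKM times transcript length was an alternative chosen after seeing the data. It ended the calls of Cyp2j7 (0.83), Cyp4f13 (0.25), Cyp4f16 (0.22), Tef (0.72), Gusb (-0.25) and Slc34a3 (-0.34) between 24 and 3 months and of Cyp2j13 (-0.22) and Cyp4b1 (-0.25) between 24 and 12 months. Depth per gene is unknown without counts, and the 5 mice per age limit what differences can be seen.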

Other observations

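Other members of at least 1 FPKM lay outside the groups above or were called at 12 months alone. Cyp51, a demethylase of sterol synthesis, had means of 36.2, 32.9 and 31.1 FPKM, and a log2 difference between 24 and 3 months of -0.16 ± 0.24, not called. Cyp4f17 rose between 3 and 12 months by 0.28 ± 0.08 on the log2 scale (exact permutation p = 0.00794, limma adjusted p = 0.171). The young mice held 3.51 to 4.58 FPKM of it and the 12-month-old mice 4.75 to 5.75 FPKM. Cyp1b1, which oxidises estrogens and aromatic hydrocarbons, was the most variable member of at least 1 FPKM at 3 and 12 months, with coefficients of variation of 116.5% and 90.0%, and its values of 1.42, 2.01, 1.74, 1.04 and 9.92 FPKM at 3 months overlapped those at 24 months, 9.65, 1.95, 3.26, 1.74 and 1.54 FPKM. These genes were chosen after their values were seen.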
